A study of Mus musculus with 7 samples.

Results

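The genes described here encode the protein part of the mitochondrial ribosome and the factors that work with it. They are the rows of the count table whose symbol is Mrpl or Mrps followed by a number and an optional letter, together with Mtif2, Mtif3, Gfm1, Gfm2, Tufm, Tsfm, Mtrf1 and Mtrf1l. This takes 86 of 54347 genes: 78 Mrp genes and 8 translation factors. The genes were chosen by name, and the set was selected on 1 measured value, the higher level of Mtif2 in the knockout libraries, so the difference of Mtif2 between genotypes is described without a test. The question put to the other 85 genes was whether they differ in the same way.

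Haematopoietic stem cells of the long-term kind (LT-HSCs), the marrow cells that can renew all blood lineages for a lifetime, were sorted from female mice, and each library came from 3000 to 5000 cells of 1 mouse. The 3 knockout (KO) mice were Emcn-/-, without a working gene for the cell-surface sialomucin endomucin by their label, and the 4 wild-type (WT) mice were their Emcn+/+ littermates. All 7 carry the strain label C57BL/6N-EMCN em1(IMPC)Wtsi /WtsiH, and no tissue-specific driver or pooling of animals is named. The labels name neither age, litter, sequencing batch nor the exons removed.

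Mitochondria hold a small genome of their own, which encodes rRNAs, tRNAs and a few membrane subunits of the respiratory chain and the ATP synthase. Those subunits are made inside the organelle by a ribosome whose proteins are all encoded in the nucleus, made in the cytosol and imported. Initiation, elongation, release and recycling follow the bacterial plan, each with its own nuclear-encoded factor. LT-HSCs are known to be mostly quiescent and to depend little on respiration until they divide.

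By role, 51 members belong to the large subunit and 26 to the small subunit. Mrps18a and Mrps30 carry small-subunit names but sit in the large subunit and are counted there. Mrps36 is counted apart, since its protein is a subunit of the 2-oxoglutarate dehydrogenase complex. The members are spread over 17 chromosomes, with 12 of them on chromosome 11, 8 on chromosome 17 and 6 on chromosome 3, where Emcn lies. The member nearest to Emcn, Mrps21, is 41470 kb away. All 86 are protein coding in GENCODE M21 (GRCm38).

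The members share features of position and promoter that the choice by name did not use. The start of another protein-coding gene lies within 1000 bases on the opposite strand, pointing away, for 19 of 86 members (22.1%), against 1491 of 21951 protein-coding genes (6.79%). RefSeq promoter windows of GRCm38.p6, from 250 bases before to 50 after a start, were found for 76 of the members, 82 windows in all. They were searched on both strands for 4 short letter strings. The ETS-family string CCGGAAG, the core bound by GABPA, is in 29 of 82 member windows (35.4%), 8.86% of all 32851 windows and 11.6% of the 21262 windows of protein-coding genes. GCGCATGC, part of the site of nuclear respiratory factor NRF1, is in 9.76% of member windows and 3.51% of protein-coding windows. CAAGATGGC, of the factor YY1, is in 9.76% and 1.43%. The E-box CACGTG is in 8.54% and 7.84% of windows, but 3 of the member windows are overlapping windows of Mrpl2 with the same site, and counted by gene it is in 5 of 76 members (6.58%) and 8.09% of all genes. Median GC content was 58.8% in member windows and 56.3% in protein-coding windows, so member windows are somewhat richer in GC, and its part in the match rates was not tested. The 150 bases before the start are printed for 4 members: Mtif2, for which the group was chosen, Mrpl58, the member with the lowest fold change, and Mrps26 and Mrpl32, both with every KO value above every WT value. Capitals mark the ETS string or its reverse complement in the first 3, and the NRF1 string or its reverse complement in Mrpl32, where 2 of the 4 matches overlap. Mrpl21, Mrpl24 and Mrps9 also had every KO value above every WT value, and their 150 bases hold none of the 4 strings.
Mtif2, chr11:29526247-29526396, plus strand: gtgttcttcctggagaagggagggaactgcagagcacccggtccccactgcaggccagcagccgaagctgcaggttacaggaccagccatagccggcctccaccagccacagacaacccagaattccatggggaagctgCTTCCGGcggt
Mrpl58, chr11:115403602-115403751, plus strand: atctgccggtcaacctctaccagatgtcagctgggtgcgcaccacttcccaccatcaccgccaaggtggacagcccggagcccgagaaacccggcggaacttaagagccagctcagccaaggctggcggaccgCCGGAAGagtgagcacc
Mrps26, chr2:130563607-130563756, plus strand: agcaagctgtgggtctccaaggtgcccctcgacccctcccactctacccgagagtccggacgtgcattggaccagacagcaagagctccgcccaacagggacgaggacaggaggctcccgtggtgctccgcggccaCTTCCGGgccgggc
Mrpl32, chr13:14613038-14613187, minus strand: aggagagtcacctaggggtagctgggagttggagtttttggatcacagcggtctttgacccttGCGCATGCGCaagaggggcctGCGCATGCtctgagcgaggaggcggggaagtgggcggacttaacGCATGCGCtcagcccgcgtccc
In Mtif2 and Mrpl58, whose values lie on opposite sides of the comparison below, the ETS string begins 11 and 17 bases before the start. The Mrps26 and Mrpl32 stretches lie before the RefSeq starts, while GENCODE M21 starts these genes inside them, at 130563742 and 14613165. By GENCODE the marked strings of both thus fall inside the gene. Psma2, a proteasome subunit gene, begins 75 bases from the GENCODE start of Mrpl32 on the other strand, outside the Mrpl32 stretch. A match is a description of the sequence, and no binding was measured here.

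Library totals ran from 6444134 to 11101774 counts, and 18507 to 23317 genes were detected per library. wt_284, wt_290 and ko_306 each held over 9000000 counts and at least 22482 detected genes, whereas the other 4 libraries had at most 19760. Emcn had 130, 327, 223 and 216 counts in WT and 1, 0 and 0 in KO, in keeping with the genotype labels, and it was the single gene of 15372 tested with an adjusted p under 0.05 (1.1e-04, edgeR quasi-likelihood test with Benjamini-Hochberg adjustment). Stem cell markers (10 of 10 tested) summed to 1299 to 2148 counts per 1000000 (CPM) in WT and 1791 to 2114 CPM in KO. wt_284 stood furthest apart in markers of other marrow cells, but the difference was not confined to it. wt_290 and wt_310 also exceeded every KO library in the neutrophil and monocyte, the erythroid, and the mast cell and basophil sums. wt_312 lay within or below the KO range in the first pair of these. The 15 neutrophil and monocyte markers summed to 14672, 1277, 1285 and 251 CPM in wt_284, wt_290, wt_310 and wt_312. In KO they summed to between 195 and 679 CPM. Erythroid markers (11 genes) summed to 4079, 1185, 1346 and 612 CPM in the same WT order, and to 784, 639 and 815 CPM in ko_306, ko_314 and ko_320. Car2 made up much of the KO sums, at 501, 470 and 575 CPM, and ranged from 370 to 648 CPM in WT. Every erythroid marker had a lower mean in KO, Car2 by the least. In each of them except Car2, wt_284 was the highest library. The 4 mast cell and basophil markers summed to 8.86 to 86.3 CPM in WT and 0 to 7.92 CPM in KO, with all 4 at 0 in ko_314. The 9 lymphoid markers gave 12.2 to 123 CPM in WT and 11.5 to 15.8 CPM in KO, where Cd3e was at 0 throughout. The 4 endothelial markers gave 122 to 156 CPM in WT and 139 to 151 CPM in KO, mostly from Tek and Pecam1. Cdh5 was at 0 throughout KO and had 1, 8, 0 and 0 counts in wt_284, wt_290, wt_310 and wt_312. In bulk RNA of sorted cells, fewer cells of a type and less RNA per cell cannot be told apart.

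All 86 members were expressed well enough to be tested. Mean WT levels ran from 5.99 CPM for Mrpl55 to 76.3 CPM for Mrpl18. Scaled to exon length, the highest WT levels per kilobase were those of Mrpl18, a large-subunit protein that also takes part in the import of 5S rRNA, at 54.6 ± 7.85 CPM per kilobase (SD, n = 4), and of Mrpl52, at 47.6 ± 14.3. Mrpl12, of the flexible stalk that recruits translation factors, followed at 27.8 ± 7.09, and Mrps21 at 27.5 ± 8.97. The first pair overlap within their SD, as do Mrpl12 and Mrps21, but both of the latter lie well below Mrpl18. Mtif2, at 10.6 ± 1.69 CPM per kilobase, ranked 25 of 86, and Mrpl23 was last at 2.43 ± 0.801. KO levels per kilobase were close to these: 55.6 ± 14.5 (SD, n = 3) for Mrpl18, 46.1 ± 8.87 for Mrpl52, 32.7 ± 5.86 for Mrpl12 and 26.0 ± 6.44 for Mrps21. The log2 fold changes, KO minus WT, were 0.03 ± 0.20 (SE) for Mrpl18, -0.05 ± 0.24 for Mrpl52, 0.24 ± 0.23 for Mrpl12 and -0.08 ± 0.31 for Mrps21. For these most abundant members the genotypes therefore differed by no more than about their standard error.

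**Figure D1:**
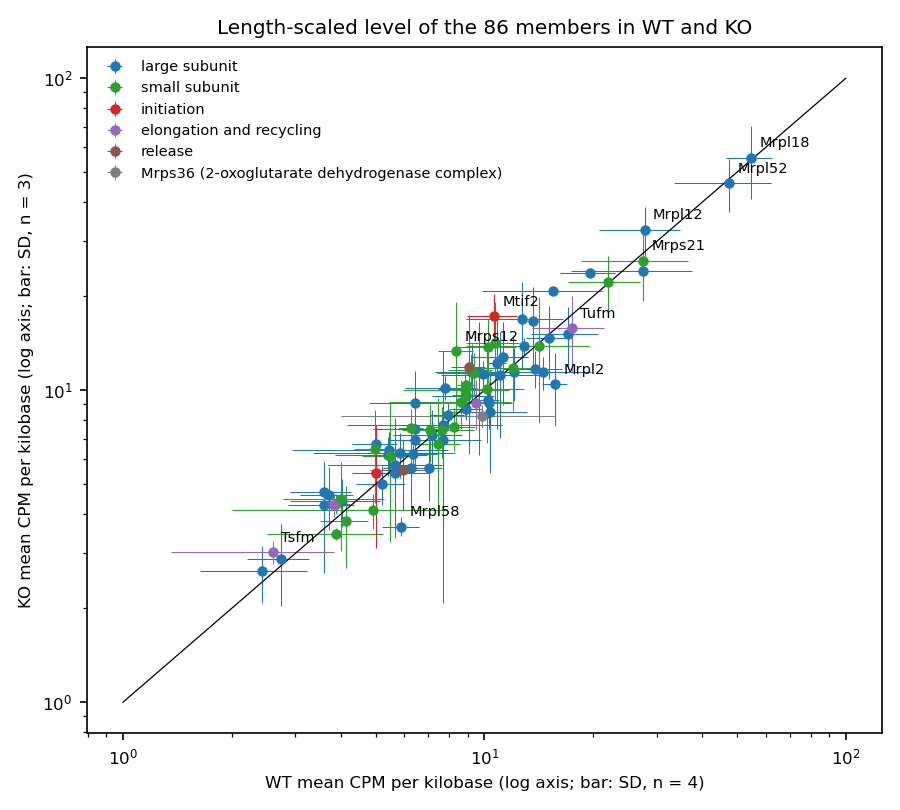
Mean level of each of the 86 members in WT (horizontal, n = 4) and KO (vertical, n = 3) in CPM per kilobase of exon, on log axes, with SD bars and a line of equal levels; colours give the role. Points follow the line over the whole range, from Mrpl23 at 2.43 to Mrpl18 at 54.6 CPM per kilobase in WT, with Mtif2 above the line and Mrpl58 and Mrpl2 below it.

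Mtif2 (ENSMUSG00000020459.14, chromosome 11 from 29526408 to 29545279 on the plus strand, GRCm38) encodes mitochondrial initiation factor 2, the GTPase that brings the formylated initiator tRNA to the small subunit. Its level was 37.5, 50.2, 35.5 and 41.5 CPM in wt_284, wt_290, wt_310 and wt_312, and 53.8, 70.2 and 76.4 CPM in ko_306, ko_314 and ko_320, the order kept for the genes that follow. The groups did not overlap, although ko_306 exceeded wt_290 by little. The means were 41.2 ± 6.55 CPM (SD, n = 4) and 66.8 ± 11.7 CPM (SD, n = 3), a 1.62-fold difference. The log2 fold change was 0.70, the highest of the 86 members. Of all tested genes, 5.8% had a log2 fold change at least as high. Over the alternative fits it ran from 0.52 in limma-voom to 0.92 in the 4 libraries under 9000000 counts. With the neutrophil and monocyte marker level as a covariate it was 0.55, and 7 other members then had higher values. Without wt_284 it was 0.66. The gene overlaps no other annotated gene.

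Mtif3, the initiation factor that keeps the subunits apart until initiation, had overlapping groups. It had 23.4, 28.1, 24.9 and 26.2 CPM in WT and 24.6, 17.9 and 40.9 CPM in KO, so that KO held both the lowest and the highest library. Its log2 fold change of 0.12 ± 0.29 (SE) turned to -0.25 without ko_320.

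Among the elongation and recycling factors, no group difference exceeded its standard error. Tufm, which delivers aminoacyl-tRNA to the ribosome, ranged from 27.0 to 44.6 CPM in WT and gave 39.9, 23.1 and 37.7 CPM in KO, for a log2 fold change of -0.14 ± 0.26 (SE). Tsfm, its nucleotide exchange factor, was the least abundant factor, with 6.18, 7.74, 12.4 and 3.85 CPM in WT and 8.78, 9.54 and 8.02 CPM in KO (0.22 ± 0.46). Gfm1, the translocase, gave 39.6, 44.9, 51.7 and 31.1 CPM in WT and 40.9, 32.7 and 47.2 CPM in KO (-0.05 ± 0.23). KO values of all 3 genes lay inside the WT range or close to it. Gfm2, a related GTPase that splits the ribosome after termination, was the steadiest, with 37.3 to 43.3 CPM in WT and 42.4, 49.5 and 45.1 CPM in KO (0.15 ± 0.18). Gfm2 and its divergent neighbour Nsa2 overlap on opposite strands, so reads of the pair may be shared.

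Of the 2 release factors, Mtrf1l, which recognises the standard stop codons, had 33.0, 28.8, 31.0 and 25.6 CPM in WT and 28.0, 59.8 and 28.1 CPM in KO. Its log2 fold change of 0.38 ± 0.28 (SE) rested on ko_314 and was -0.06 without it. Its relative Mtrf1 had 11.0 to 17.2 CPM in WT and 10.6, 12.4 and 17.1 CPM in KO (-0.10 ± 0.32). Of the 8 factors, 5 thus had positive and 3 negative values, with a median of 0.13, and Mtif2 alone had groups that did not overlap.

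**Figure D2:**
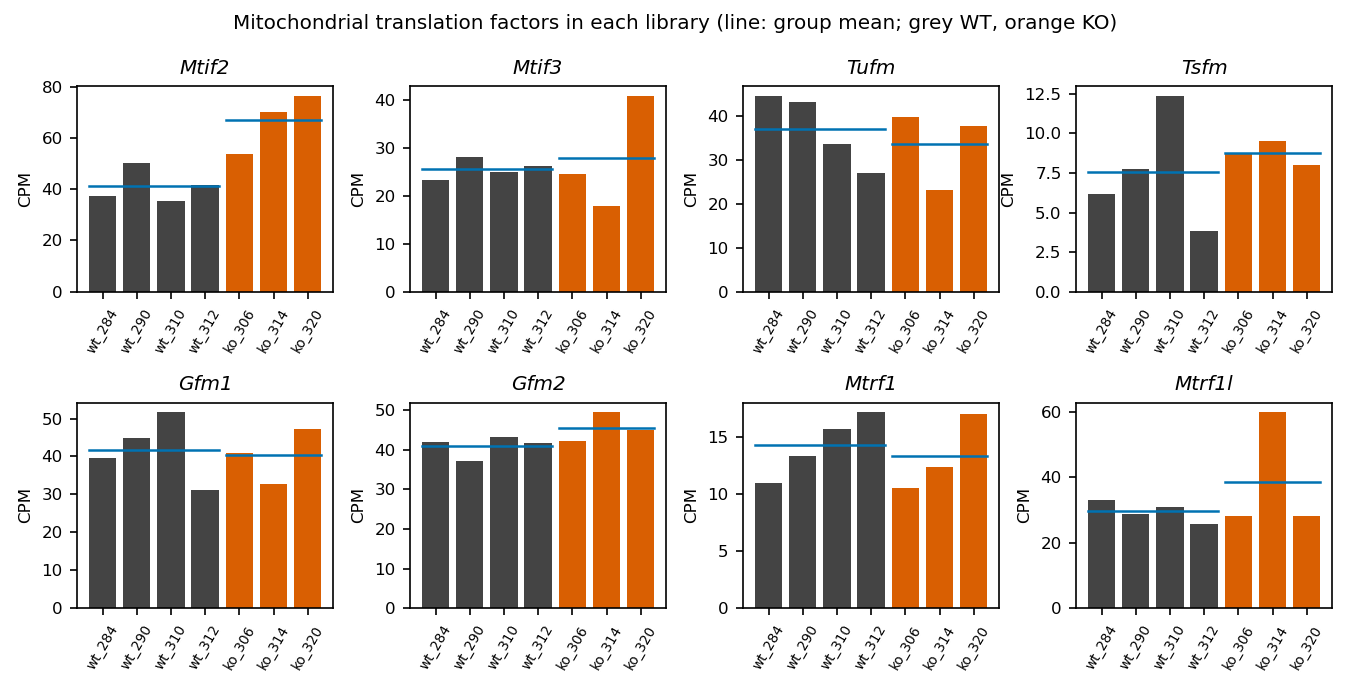
Level in CPM of the 8 mitochondrial translation factors in each of the 7 libraries, with bars from 0 (grey for WT, orange for KO), blue lines at the group means and a separate axis for each gene. Mtif2 is above the WT range in all 3 KO libraries, whereas the high KO mean of Mtrf1l comes from ko_314 at 59.8 CPM and that of Mtif3 from ko_320 at 40.9 CPM.

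In the comparison across all members, 0 were higher and 0 lower in KO at an adjusted p under 0.05 in edgeR's quasi-likelihood test. The background was 0% of 15372 tested genes called higher and 0.00651% called lower, Emcn alone, so 0 calls among the members do not set them apart. At an unadjusted p under 0.05 there was 1 of the 85 members other than Mtif2 (1.18%), Mrpl58, against 503 of all tested genes (3.27%). DESeq2, limma-voom and every other alternative also called 0 members. The log2 fold change was positive for 53 and negative for 33 of the 86. The median was 0.09, or 0.08 without Mtif2, with quartiles of -0.07 and 0.24. Over all tested genes the median was -0.02 with quartiles of -0.28 and 0.20. Of all tested genes 47.6% were positive, against 61.6% of the members, or 61.2% without Mtif2.

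The precision was enough to bound most members but not to show small shifts. A difference of more than 2-fold up or down was outside the 95% interval for 65 of the 85 members other than Mtif2 (76.5%) and one of more than 1.5-fold for 14 (16.5%). The shares were 59.8% and 15.5% of the 8616 tested genes whose mean level lies in the members' range. Over all tested genes they were 49.6% and 20.9%. The median standard error was 0.28 on the log2 scale. A log2 difference under 0.25 in size was seen for 60 members, for 8001 of all 15372 tested genes and for 4882 of those in the members' range. Apart from Mtif2, only Mrps12 was at or above 0.5 and only Mrpl58 and Mrpl2 at or below -0.5. These 3 are 3.53% of the 85 members other than Mtif2. The share was 25.3% of all tested genes and 17.3% of those in the members' range of level.

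**Figure D3:**
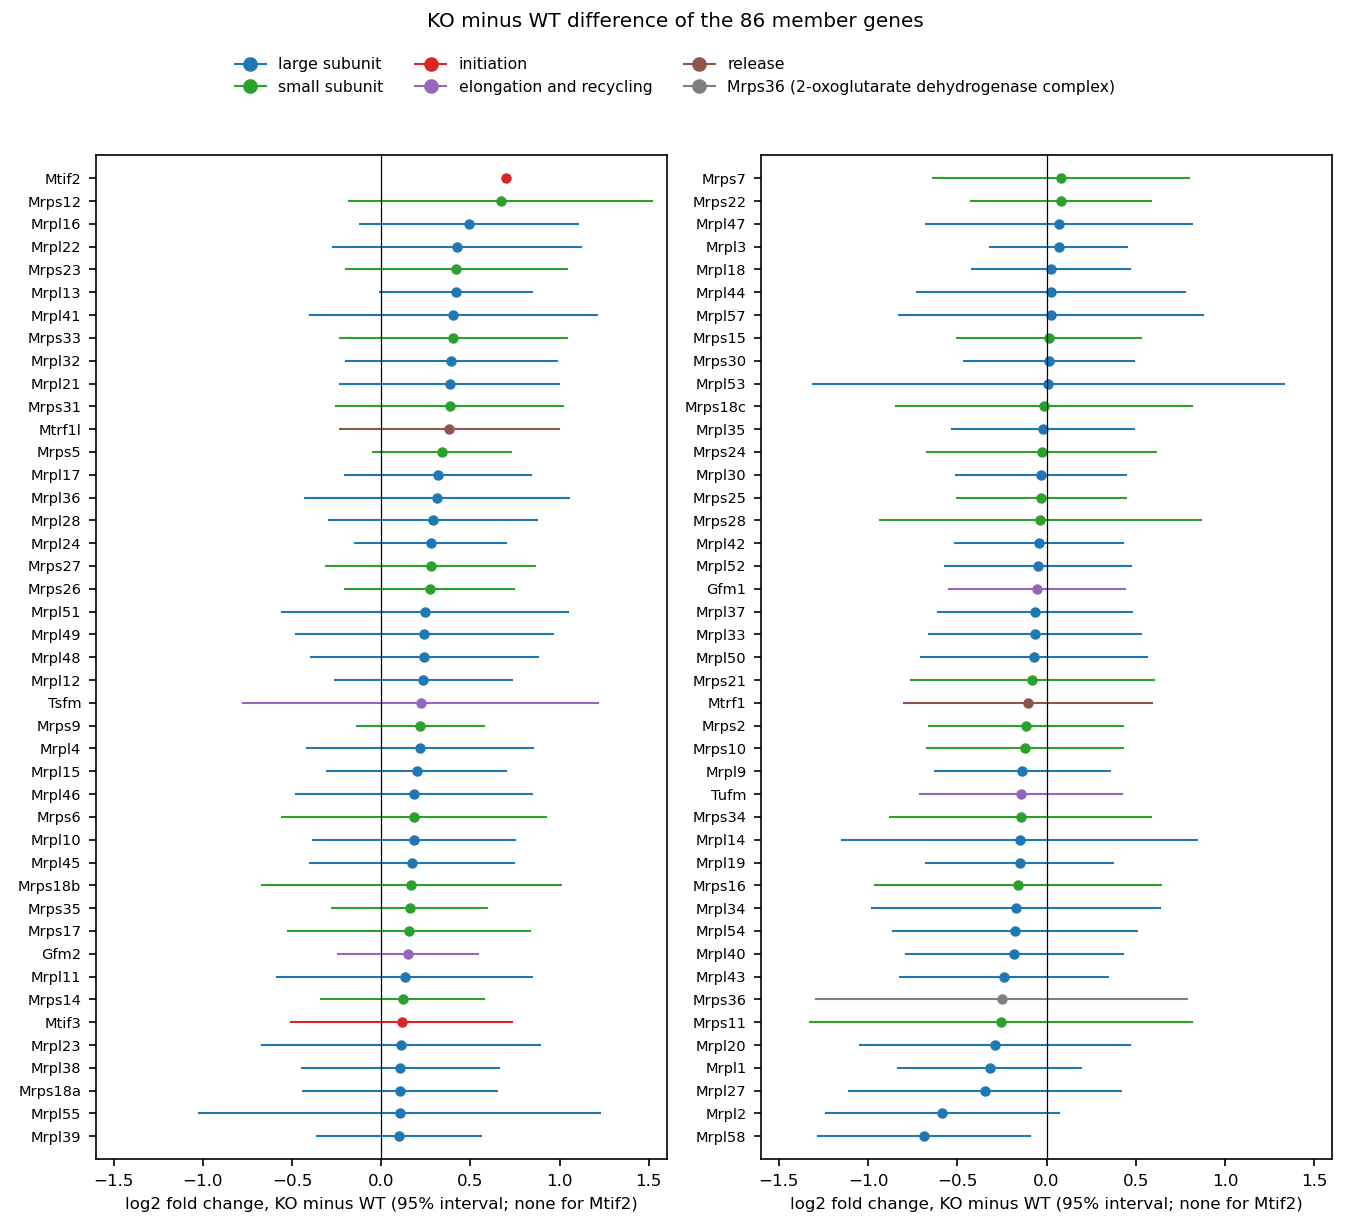
Log2 fold change, KO minus WT, of all 86 members with its 95% interval from the edgeR fit (none for Mtif2, on which the set was selected), ordered from highest to lowest over both panels and coloured by role. Mtif2 heads the order at 0.70 and Mrpl58 ends it at -0.69, and the intervals of all genes between them include 0.

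**Figure D4:**
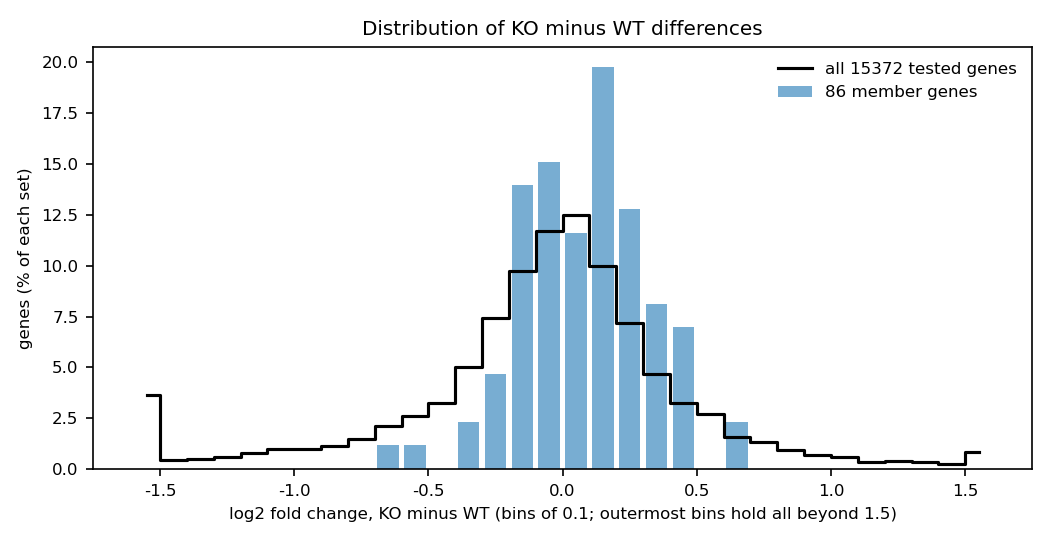
Share of genes in each 0.1-wide bin of log2 fold change, KO minus WT, for the 86 members (filled) and all 15372 tested genes (line), with values beyond 1.5 gathered in the outermost bins. The members are gathered between -0.69 and 0.70 around a median of 0.09, whereas all tested genes spread more widely around -0.02.

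The large subunit had 32 genes with positive and 19 with negative log2 fold changes, 0 of them called, and a median of 0.07. Its highest value was that of Mrpl16, with 17.2, 20.3, 16.4 and 27.7 CPM in WT and 26.0, 22.8 and 37.4 CPM in KO, for a log2 fold change of 0.49 ± 0.28 (SE). Only wt_312 reached into the KO range. Mrpl22, which lines the exit tunnel for the new protein, had 9.21, 14.1, 22.6 and 15.0 CPM in WT and 20.0, 20.4 and 20.9 CPM in KO (0.43 ± 0.32). Its KO values were nearly equal and lay inside the wide WT range. Mrpl13, one of the more abundant members, had 33.7, 39.0, 39.4 and 47.4 CPM in WT and 44.1, 59.4 and 56.7 CPM in KO (0.42 ± 0.20). Mrpl41 had 6.68 to 14.2 CPM in WT and 9.64, 17.0 and 18.3 CPM in KO (0.40 ± 0.37). In Mrpl16, Mrpl13 and Mrpl41 alike, at least 1 WT library reached into the KO range.

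Groups without overlap were counted apart from the test. Of the 85 members other than Mtif2, 5 (5.88%) had every KO value above every WT value and 2 (2.35%) had every KO value below. Among all tested genes the shares were 2.43% above and 2.43% below. Those above, all with adjusted p of 0.992 in edgeR's quasi-likelihood test, were Mrpl21, Mrpl24 and Mrpl32 of the large subunit and Mrps9 and Mrps26 of the small subunit. Mrpl21 had 14.1, 18.6, 11.5 and 18.6 CPM in WT and 19.4, 22.5 and 19.6 CPM in KO (log2 fold change 0.38 ± 0.28, SE). Mrpl24 had 48.2, 45.5, 50.1 and 32.9 CPM in WT and 53.1, 55.2 and 52.5 CPM in KO (0.28 ± 0.20). The gap between the groups was small in both genes, and in Mrpl24 wt_312 lay well below the other 3 WT libraries. Mrpl32, whose protein is cut by a mitochondrial inner-membrane protease before it joins the ribosome, had 20.1, 17.3, 13.3 and 20.8 CPM in WT and 20.8, 21.03 and 28.7 CPM in KO (0.39 ± 0.27). Here wt_312 and ko_306 were almost equal. Its divergent neighbour Psma2 had a log2 fold change of 0.08 ± 0.23.

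Mrpl58 and Mrpl2, both of the large subunit, had the lowest fold changes. Mrpl58 (ENSMUSG00000018858.15, chromosome 11 from 115403752 to 115412674 on the plus strand), also known as Ict1, is a peptidyl-tRNA hydrolase built into the large subunit that frees stalled ribosomes. Its WT libraries held 22.8, 19.8, 17.88 and 17.98 CPM and its KO libraries 12.7, 12.7 and 11.2 CPM. The 3 KO libraries were close together and all below the lowest WT library. The means were 19.6 ± 2.29 CPM (SD, n = 4) and 12.2 ± 0.843 CPM (SD, n = 3), 0.621-fold, with a log2 fold change of -0.69 ± 0.28 (SE), a 95% interval from -1.28 to -0.09 and an adjusted p of 0.992 in edgeR's quasi-likelihood test. Across the alternatives it ran from -0.74 without ko_306 to -0.52 with the marker covariate. An antisense gene, Ict1os, overlaps it, and the labels do not say whether the counting used strand.

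Mrpl2, next to the peptidyl transferase centre, had 19.6, 17.4, 19.6 and 16.8 CPM in WT and 14.6, 13.6 and 8.53 CPM in KO. The groups did not overlap, and ko_320 was the lowest library. The log2 fold change was -0.58 ± 0.30 (SE), and -0.36 without ko_320. Its divergent neighbour Klc4, a kinesin light chain whose start is 207 bases away, had 0.32 ± 0.38, with the opposite sign. Mrpl27, at -0.35 ± 0.35, was led by wt_312 at 21.6 CPM, with 10.7 to 14.2 CPM in the remaining WT mice and 12.8, 10.6 and 10.3 CPM in KO. Mrpl1, of the stalk beside the tRNA exit, had 28.0 to 33.5 CPM in WT and 21.4, 30.3 and 21.01 CPM in KO (-0.32 ± 0.24). In Mrpl20 (-0.29 ± 0.35) the KO libraries spread from 9.1 to 19.4 CPM and the WT libraries from 10.8 to 20.9 CPM. These last 3 genes had overlapping groups.

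The small subunit had 16 genes with positive and 10 with negative log2 fold changes, 0 called, and a median of 0.10. Mrps12, of the decoding centre, had the highest value, 0.67 ± 0.39 (SE). Its WT libraries were close together at 8.97, 8.88, 9.63 and 7.32 CPM, and KO held 6.89, 18.2 and 16.6 CPM. Thus ko_306 was the lowest of all 7 libraries and the other KO libraries were the highest. Its divergent neighbour Sars2, which charges mitochondrial serine tRNA and starts 172 bases away, had 0.03 ± 0.50. Mrps23 had 13.7, 20.3, 16.2 and 13.7 CPM in WT and 18.1, 27.1 and 19.1 CPM in KO (0.42 ± 0.29), and wt_290 alone reached the KO range.

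Mrps9 and Mrps26, the small-subunit genes without overlap, had small differences. Mrps9 had 49.3, 51.0, 55.6 and 49.3 CPM in WT and 57.1, 61.7 and 60.5 CPM in KO (0.22 ± 0.17). Its value stayed between 0.19 and 0.26 over the alternatives. Mrps26 had 28.7, 27.9, 24.0 and 28.6 CPM in WT and 29.5, 38.8 and 30.7 CPM in KO (0.27 ± 0.22), with ko_314 above the rest. Mrps11, with the lowest value of the small subunit, was widely scattered in WT, with 10.7, 9.73, 19.0 and 3.47 CPM, against 9.56, 7.61 and 9.68 CPM in KO (-0.25 ± 0.49). It overlaps Mrpl46 on the other strand, so that a pair of members may share reads.

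Mrps18a, Mrps18b and Mrps18c are paralogs that take up different places in the ribosome. Mrps18a, of the large subunit, had 18.6 to 28.0 CPM in WT and 22.8 to 30.7 CPM in KO (0.10 ± 0.25). Mrps18b had 8.86 to 13.3 CPM in WT and 6.62 to 18.8 CPM in KO (0.17 ± 0.39), and Mrps18c had 6.55 to 12.7 CPM in WT and 8.61 to 14.9 CPM in KO (-0.01 ± 0.38). The groups of all 3 overlapped, and the sign of each changed in some alternative. A separate row for an Mrps18b pseudogene, Gm15760, held 110 counts over all libraries, and one for an Mrpl40 pseudogene, Gm16523, held 409, so reads of these pairs may be split. Each of the other 10 pseudogene rows of Mrp genes held at most 2 counts. Mrps36, apart from the ribosome, had 3.98 to 21.1 CPM in WT and 9.73 to 11.5 CPM in KO (-0.25 ± 0.48).

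Of the 18 divergent pairs in which both genes were tested, 9 had fold changes of the same sign. In all, 40 members (46.5%) overlap a gene on the other strand and 13 (15.1%) a gene on the same strand, which leaves room for shared reads.

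The members made up 0.214 ± 0.0173% of all counts in WT (SD, n = 4; 0.191 to 0.232%) and 0.234 ± 0.0157% in KO (SD, n = 3; 0.216 to 0.243%). Their summed level was 2162 ± 85.8 CPM in WT and 2324 ± 230 CPM in KO. The ranges overlapped, and the KO libraries differed among themselves. The median deviation of the 86 members from each gene's own centre, on the log2 scale, was -0.03, -0.02, 0.05 and -0.09 in the WT libraries and -0.07, 0.10 and 0.13 in ko_306, ko_314 and ko_320. Thus ko_314 and ko_320 were the highest libraries, and ko_306 was lower than 3 of the 4 WT libraries. The 8 translation factors, with Mtif2 among them, gave -0.09, -0.02, -0.02 and -0.34 in WT and -0.01, 0.03 and 0.18 in KO, with wt_312 far below the rest and ko_306 barely above the highest WT library. The 78 cytosolic ribosomal protein genes gave -0.20, -0.10, 0.04 and -0.02 in WT and -0.16, 0.13 and 0.24 in KO, again with ko_306 among the low libraries. The 3 libraries over 9000000 counts, wt_284, wt_290 and ko_306, were the 3 lowest for that list. Within the 4 libraries under 9000000 counts the median log2 fold change of the members was 0.12, with depth class as a term it was 0.08 and without wt_284 it was 0.13. It was 0.05 without wt_290 and also 0.05 without ko_314.

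**Figure D5:**
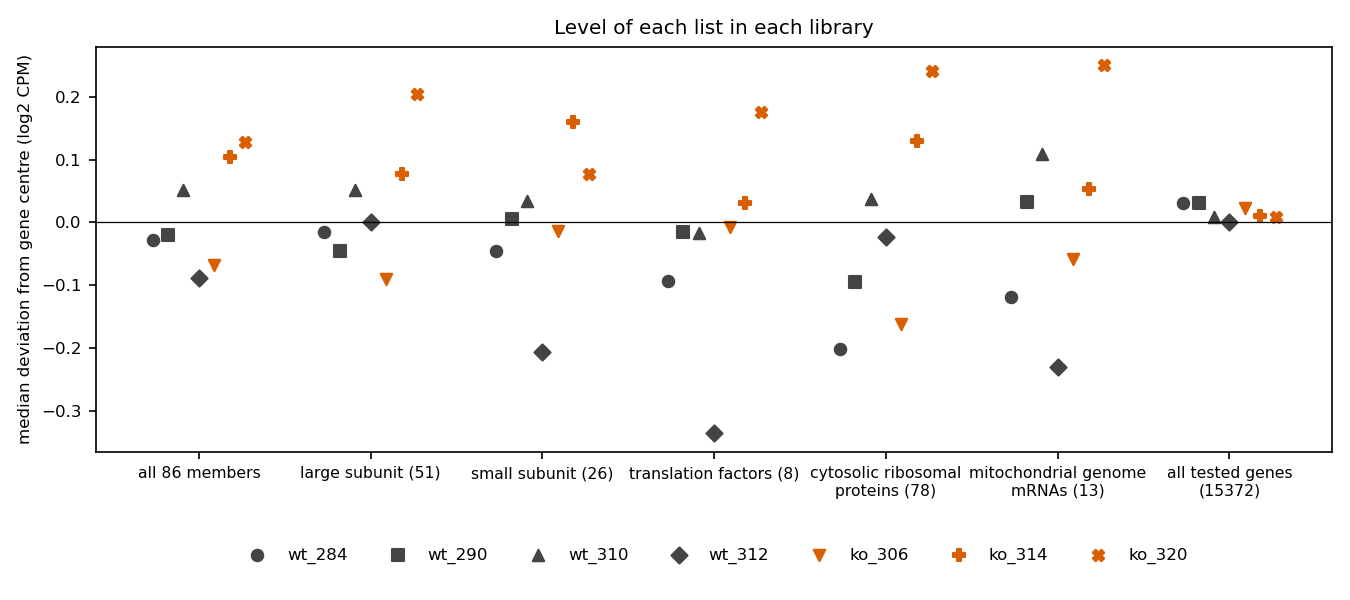
Median over a list's genes of the deviation of log2 CPM from the gene's centre, for 6 lists and for all tested genes, with 1 point per library (grey for WT, orange for KO, a symbol for each mouse). In all 86 members, both subunits, the cytosolic ribosomal proteins and the mitochondrial mRNAs, ko_314 and ko_320 lie towards the top except that wt_310 is above ko_314 in the mitochondrial mRNAs, and ko_306 is within the WT range or below it.

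The other genes of mitochondrial gene expression also had 0 calls in every list. Ribosomal proteins with names outside the Mrp series (5 of 6 listed, the 6th being Mrpl58 under its older name) split into 2 positive and 3 negative values, with a median of -0.04. Gadd45gip1, a large-subunit protein, averaged 30.0 ± 3.46 CPM in WT and 43.6 ± 12.2 CPM in KO (0.54 ± 0.23, SE), and Dap3, a GTP-binding protein of the small subunit, at 42.9 ± 1.67 and 34.8 ± 8.54 CPM (-0.30 ± 0.21). The 21 genes for tRNA charging had 11 positive and 10 negative values and a median of 0.03. Among them Hars2, the histidine enzyme, had 22.8 to 30.6 CPM in WT and 34.9, 38.5 and 48.5 CPM in KO (0.55 ± 0.22), so its groups did not overlap. Aars2, the alanine enzyme, had -0.65 ± 0.36.

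The 25 assembly and rRNA modification genes had 13 positive and 12 negative values and a median of 0.06. Mrm2, an rRNA methyltransferase of the large subunit, had 0.899 to 3.49 CPM in WT and 4.39, 5.82 and 10.1 CPM in KO (1.40 ± 0.64), without overlap but at a low level. Noa1, an assembly GTPase, had -0.49 ± 0.24. Of the recycling, rescue and other factors, 5 were tested, with 3 positive and 2 negative values and a median of 0.45. Guf1, a homologue of bacterial LepA, had 0.45 ± 0.22 and Mtres1, a rescue factor, 0.94 ± 0.39, the latter with ko_320 at 33.5 CPM and ko_306, at 10.1 CPM, inside the WT range of 8.85 to 11.3 CPM.

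All 9 genes of mitochondrial transcription and RNA stability had positive values, with a median of 0.11. Tefm, the elongation factor of the mitochondrial RNA polymerase, had 4.43 to 7.88 CPM in WT and 7.66, 21.8 and 12.2 CPM in KO (1.21 ± 0.44), and Mterf1a, which binds a termination site in mitochondrial DNA, 0.56 ± 0.54. The other 7, among them Tfam and Polrmt, lay between 0.04 and 0.29.

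The rRNAs and mRNAs of the organelle's own genome, which this ribosome contains or translates, had small differences except in mt-Co3 and mt-Nd3, and none was called. The 2 rRNAs took 11.5 ± 1.25% of counts in WT (SD, n = 4) and 12.6 ± 1.16% in KO (SD, n = 3), with log2 fold changes of 0.16 ± 0.13 for mt-Rnr1 and 0.08 ± 0.12 for mt-Rnr2. The 13 mRNAs together took 1.52 ± 0.23% and 1.69 ± 0.178%. Of these, 11 had positive values and the median was 0.15, with mt-Cytb at 0.30 ± 0.16 and mt-Nd4l at 0.25 ± 0.17. The negative pair, named after its values were seen, was mt-Co3 and mt-Nd3. Their log2 fold changes were large, at -1.90 for mt-Co3 and -1.74 ± 1.385 (SE) for mt-Nd3. mt-Co3 was listed at 0 counts in ko_320 and at 830 to 5439 counts in the other libraries, and mt-Nd3 had at most 42 counts in any library. The cytosolic ribosomal protein genes had 69 positive and 9 negative values of 78 (88.5%), a median of 0.15 and 0 calls.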

How the data were processed

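Sorted LT-HSCs of 4 Emcn+/+ and 3 Emcn-/- mice were profiled by paired RNA sequencing with a SMARTer stranded total RNA kit, per the labels' protocols, whereas the molecule label reads polyA RNA. The authors deposited estimated counts per gene, already whole numbers and not scaled between libraries. Trimming with cutadapt and quantification software Salmon are listed, with no version, per the submitters' processing notes. Annotation, gene-level summing and use of strand were not given in the sources used here. Column names matched the samples one to one, with 0 columns unused.

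Libraries were grouped by the genotype label and are named by genotype and mouse number. Libraries of a group differed well beyond sampling noise, the smallest chi-square of a pair being 15.6 per degree of freedom. Counts were fitted in edgeR 4.0.16 (R 4.3.3) with its default expression filter, TMM factors and a robust quasi-likelihood fit over all 7 libraries without covariates. P-values were adjusted by Benjamini-Hochberg over all 15372 tested genes at a threshold of 0.05. They set the KO minus WT difference against the spread between mice, which the fit estimates for each gene with help from the other genes. CPM use the TMM factors, with a prior count of 2 for log2 levels. Levels per kilobase use the merged exons of GENCODE M21, so a gene with long rare exons is understated. Of the table's identifiers, 98.1% were in GENCODE M21 with the same version. No test was made over a list.

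The members and lists were chosen with earlier results of these data known. Named genes are Emcn, the 8 factors, the 6 highest and 6 lowest Mrp genes by log2 fold change, Mrp genes whose groups do not overlap, the 4 Mrp genes with the highest level per kilobase, the Mrps18 family, divergent partners of named members, and the 2 genes with the smallest p of each related list. The pair of the cytosolic ribosomal list is not named. Genes named outside this rule, such as Mrps36, mt-Co3, mt-Nd3, Tfam and Polrmt, were chosen after their values were seen.

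Alternatives were DESeq2 1.42.0, limma-voom (limma 3.58.1) with quality weights, RLE and upper-quartile factors, no filter, a filter of at least 1 CPM in 3 libraries, the non-robust fit, the mean log2 CPM of neutrophil and monocyte markers as a covariate, mice numbered above 300, a threshold of 0.1, other list borders, and leaving out each mouse. Libraries under 9000000 counts and a depth term were added after seeing the data.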

Additional observations from a re-analysis of the deposited data

Results flagged for a closer look

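For Mrps18c, a small-subunit protein, wt_312 lay far from the other WT libraries, at 6.549 CPM against 11.99 to 12.73 CPM. The gap made up 0.881 of the range of the 4 WT libraries, above Dixon's critical value of 0.829. Chance alone passes this bound in about 1 in 20 groups. Without wt_312 the log2 fold change of Mrps18c was -0.18, against -0.01 with it. KO held 8.61, 8.95 and 14.9 CPM.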

How the results depend on the processing

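The WT mice were littermates of the KO mice, but the labels do not say which mice shared a litter. No analysis paired by litter was therefore possible, and the fits take no account of litter. Members called stayed at 0 under all alternatives, including a threshold of 0.1, while calls over all genes ran from 0 in limma-voom to 12 in DESeq2 and 81 with no filter. Upper-quartile factors moved the share of positive members to 66.3%, mice above 300 to 54.7%, and leaving out ko_306 or wt_310 to 68.6%. With upper-quartile factors the median over all tested genes also rose, from -0.02 to 0.02. Over the genes tested in the main fit, that median ran from -0.04 without ko_306 to 0.02 with the marker covariate. The median log2 fold change of the members ran from 0.04 in limma-voom to 0.14, and from 0.05 to 0.14 on leaving out a mouse. That of the large subunit ran from 0.02 to 0.14 on leaving out a mouse and was -0.001 with mice above 300. That of the small subunit ran from 0.08 to 0.15 on leaving out a mouse, and became 0.22 with the neutrophil and monocyte covariate and 0.21 in libraries under 9000000 counts. The cause was not tested.

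Of 846 alternative values for the 47 named genes, 803 kept direction and side of the threshold, 42 changed sign, all of genes that did not pass, and 1 lost its call: Emcn in limma-voom, at -8.32 (adjusted p 0.991). Of 32 named members, 19 never changed sign. Where the log2 fold change of a gene turned sign, the values were as follows. With the marker covariate it became 0.082 for Gfm1, -0.21 for Mrpl18, 0.061 for Mrpl20, 0.42 for Mrps11, 0.33 for Mrps18c, -0.012 for Mtif3 and 0.22 for Tufm. With mice above 300 it became -0.13 for Mrpl18, -0.033 for Mrps18a, 0.20 for Mrps18c and 0.16 for Tufm. With the depth term it became -0.067 for Mrpl18 and 0.0024 for Mrps18c. In limma-voom it became 0.066 for Mrpl52 and -0.084 for Mtif3. With upper-quartile factors it became 0.030 for Mrps18c. With the 1 CPM filter it became 0.0013 for Mrps18c. In libraries under 9000000 counts it became 0.33 for Mrps18c. Over the fits without 1 mouse, with the mice whose loss changed the sign in parentheses, the log2 fold change ran from -0.17 to 0.089 for Gfm1 (wt_310 and ko_314), from -0.15 to 0.19 for Mrpl18 (wt_284, wt_290 and ko_320), from -0.20 to 0.19 for Mrpl52 (ko_306, wt_312 and ko_314) and from -0.53 to 0.17 for Mrps11 (wt_310). It ran from -0.035 to 0.20 for Mrps18a (wt_290 and ko_314), from -0.18 to 0.50 for Mrps18b (ko_314), from -0.29 to 0.12 for Mrps18c (wt_284, wt_290, ko_306, wt_310 and ko_314) and from -0.26 to 0.16 for Mrps21 (ko_306 and wt_310). It also ran from -0.25 to 0.36 for Mtif3 (ko_320), from -0.31 to 0.019 for Mtrf1 (ko_306 and wt_312), from -0.060 to 0.58 for Mtrf1l (ko_314) and from -0.31 to 0.080 for Tufm (ko_314). With a median standard error of 0.28, shifts of this size are below what 7 libraries can resolve for a single member.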

Other observations

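The tRNAs of the mitochondrial genome, chosen after their values were seen, were sparsely counted, with wt_284 the highest library and ko_320 the lowest. The 22 tRNA genes summed to 116 CPM in wt_284, 52.3 CPM in wt_290, 20.9 CPM in wt_310 and 8.22 CPM in wt_312, and to 20.2 CPM in ko_306, 5.97 CPM in ko_314 and 4.46 CPM in ko_320. The number of these genes at 0 was 1, 1, 4 and 14 in WT and 2, 11 and 17 in KO.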
